A study of Mus musculus with 2 samples.

Results

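Transcripts of 9 genes that act directly beneath the T cell receptor were examined in mouse 5cc7 T cell blasts: the kinase genes Zap70, Fyn and Txk, the adaptor genes Lat, Lcp2 and Grap2, and the effector genes Vav1, Plcg1 and Rasgrp1. They are 9 of the 18193 named genes on the array. Their probe sets, the groups of short probes that each give 1 value, were those annotated to one of these symbols alone, and there were 20 of them among 45037. The cells carry a T cell receptor specific for a moth cytochrome c (MCC) peptide, had been stimulated in culture with that peptide and were harvested 5 days later. Their RNA was applied to 2 Affymetrix arrays, set 1 and set 2, which form the only group, with no unstimulated or earlier sample beside it. The design text speaks of RNA converted and hybridised in parallel, so the spread between the arrays may be technical only.

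When a receptor meets its peptide, the Src family kinases LCK and FYN phosphorylate the CD3 and zeta chains, and ZAP-70 binds the phosphorylated chains. ZAP-70 then phosphorylates the membrane adaptor LAT and the cytosolic adaptor SLP-76 (Lcp2), which the adaptor GADS (Grap2) holds together. On this scaffold Tec family kinases, among them TXK, activate phospholipase C gamma 1 (Plcg1), VAV1 acts on Rac GTPases, and RASGRP1, recruited by diacylglycerol, activates Ras.

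Background was gauged from genes that liver, kidney, pancreas and eye express and T cells should not. The 95th percentile of their probe sets, 52.4 for set 1 and 54.8 for set 2, was taken as the bound, and a probe set had to exceed it on both arrays. The median of all probe sets was 36.4 for set 1 and 37.9 for set 2. By this rule 8 of the 9 genes (88.9%) had a probe set above background, where 47.8% of all named genes did. Of the 20 probe sets, 16 (80%) were above background, against 38.4% of all probe sets. The gene without one was Grap2. The chance that a gene has such a probe set grows with the number it has: the share of all genes was 32.5% with 1 probe set, 55.7% with 2, 67.8% with 3 and 73.9% with 4. Lat and Txk had 1 probe set, Fyn, Lcp2, Vav1 and Grap2 had 2, Zap70 and Plcg1 had 3 and Rasgrp1 had 4. The number of arrays limits the precision, and probes differ in how strongly they bind, so the genes are not ranked against each other by level.

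**Figure D1:**
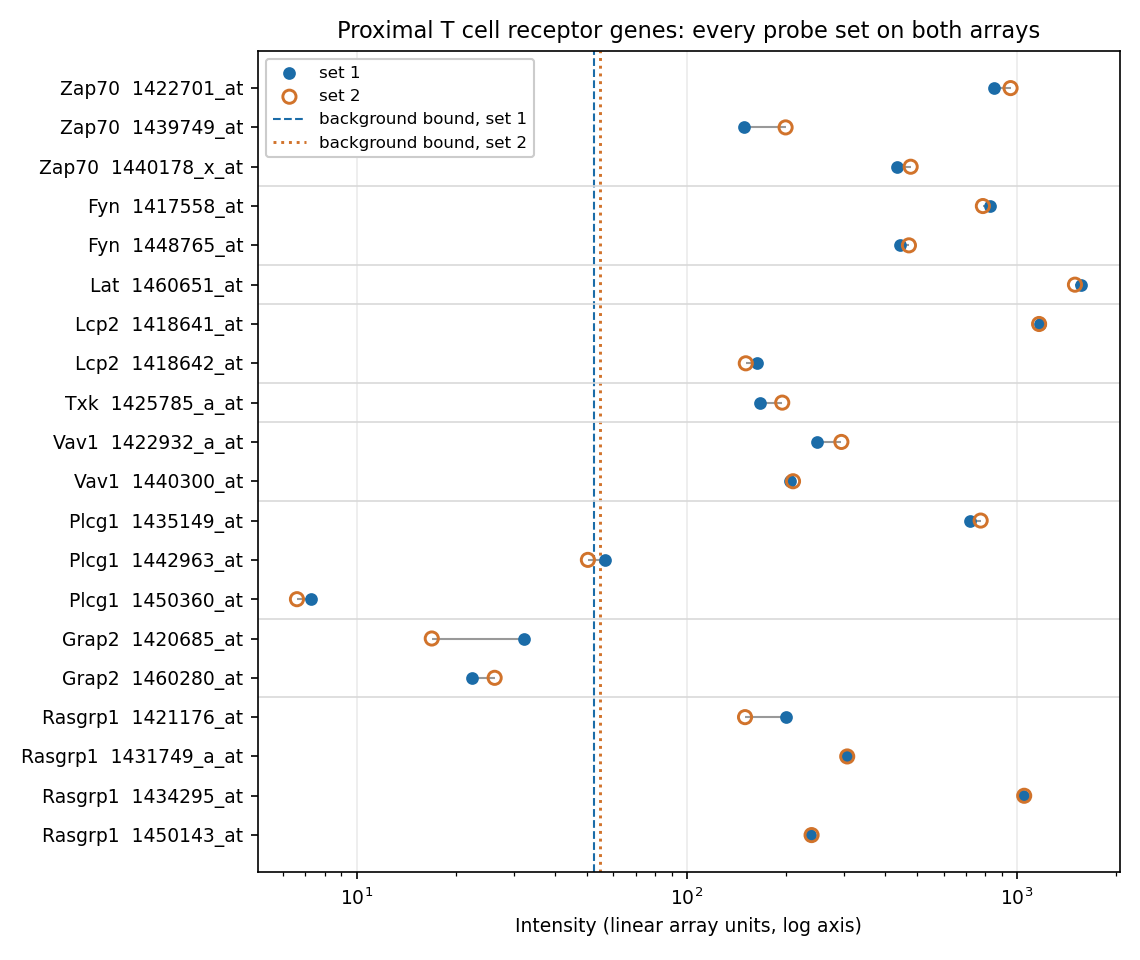
Intensity of every probe set of the 9 genes on set 1 (filled) and set 2 (open), in linear array units on a log axis, with the background bound of each array as vertical lines. All probe sets of 7 genes lie right of both bounds, Plcg1 has 1 of 3 there, and both Grap2 probe sets lie left of them.

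Among the kinases, Zap70, which encodes the kinase recruited to the phosphorylated receptor chains, was above background with all 3 probe sets. The probe set 1422701_at read 855.3 on set 1 and 957 on set 2 (mean 906 ± 71.9, SD, n = 2). The probe set 1440178_x_at read 434.7 and 476.8, and 1439749_at read 148.8 and 199.3. Each Zap70 probe set was lower on set 1, and the dimmest of them lay at 2.84 times the bound of set 1 and 3.64 times that of set 2. Its coefficient of variation, 20.5%, was the highest among the 16 probe sets above background.

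Fyn, the gene of a Src family kinase that acts on the receptor chains beside LCK, was above background with both probe sets. They read 830.2 and 788.9 for 1417558_at (810 ± 29.2, SD, n = 2) and 441.9 and 471.1 for 1448765_at (457 ± 20.6). One was higher on set 1 and the other on set 2, and their lowest reading was 8.43 times the bound. Txk, the gene of a Tec family kinase of T cells, has 1 probe set, 1425785_a_at. It read 167.3 on set 1 and 194.7 on set 2 (181 ± 19.4, SD, n = 2), or 3.19 and 3.55 times the bounds. Lck was not analysed here: 0 probe sets carried its symbol, alone or joined with others, in the annotation used.

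The scaffold genes differed in detection. Lat, the gene of the membrane adaptor, has 1 probe set, which read 1559.3 on set 1 and 1499.5 on set 2 (1529 ± 42.3, SD, n = 2). These readings were 29.7 and 27.4 times the bounds. Lcp2, the gene of SLP-76, was above background with both probe sets, 1172.1 and 1167.6 for 1418641_at (1169.8 ± 3.18) and 163.1 and 151 for 1418642_at (157 ± 8.56). The annotation links both Lcp2 probe sets to the same sequence record, yet 1418641_at was the brighter on both arrays.

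Grap2, whose product GADS joins SLP-76 to LAT, was below the bound with both probe sets on both arrays. The probe set 1420685_at read 32.1 on set 1 and 16.9 on set 2 (24.5 ± 10.7, SD, n = 2), and 1460280_at read 22.4 and 26.2 (24.3 ± 2.69). The highest of these readings was 0.612 of its bound. Signals of this size were not distinguishable from those of the off-tissue genes, which does not show that the transcript was absent. Both Grap2 probe sets are linked to a RefSeq transcript in the annotation.

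The effector genes were all detected. Vav1, which encodes an exchange factor for Rac, was above background with both probe sets, 247.7 and 294.1 for 1422932_a_at (271 ± 32.8, SD, n = 2) and 205.4 and 209.9 for 1440300_at (208 ± 3.18). Rasgrp1, the gene of the diacylglycerol-activated exchange factor for Ras, was above background with all 4. Of these, 1434295_at read 1041.6 and 1052.4 (1047 ± 7.64), 1431749_a_at 305.3 and 306.3, and 1450143_at 236.9 and 238.9. The Rasgrp1 probe set 1421176_at read 200.5 and 150.2, lower on set 2, while the other 3 differed between the arrays by 1.01-fold at most.

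Plcg1, whose product cleaves a membrane lipid into the calcium-releasing messenger and diacylglycerol, rested on 1 probe set of 3. The probe set 1435149_at read 722.9 on set 1 and 776.9 on set 2 (750 ± 38.2, SD, n = 2), 13.8 and 14.2 times the bounds. The probe set 1442963_at read 56.4 and 50.2, above the bound on set 1 and below it on set 2, and 1450360_at read 7.3 and 6.6. Both arrays gave the same order. The dimmest of them, well below both bounds, is the one linked to a RefSeq transcript, whereas the brightest is linked to an expressed sequence tag, a single read from a cDNA clone.

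Disagreement of this kind was common on the array. Among 5715 named genes with several probe sets and at least 1 above background, every probe set was above background in 37.6%. Of the 6 such genes here, every probe set was above background in 5, Plcg1 being the exception. Of the 7 probe sets linked to a RefSeq transcript 4 were above background, as were 4 of 5 linked to expressed sequence tags, 5 of 5 linked to other GenBank records and 3 of 3 with no record given.

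The arrays differed little for these genes, much as they did for other probe sets of like intensity. Differences were taken as log2 of set 1 over set 2, less the median over all probe sets above background, which was -0.03. Of the 16 probe sets above background 0 differed by more than 1.5-fold, against 2.9% of the 17316 probe sets above background on the whole array. Beside that share, a count of 0 among 16 does not set these probe sets apart. Their centred differences ran from -0.40 for the Zap70 probe set 1439749_at to 0.44 for the Rasgrp1 probe set 1421176_at, with 8 above 0 and 8 below it. Without the centring 5 were higher on set 1 and 11 on set 2, so this split depends on it. The median size of the difference was 0.09, against 0.14 over all probe sets above background, and the SD was 0.18 against 0.24. This comparison is not of like intensity, because the 16 all read 148.8 or more. Over the whole array the median size was 0.14 between 128 and 256 units and 0.09 between 512 and 1024. The median signed difference of the 16 was 0.003, beside 0 over all probe sets above background, which the centring fixes.

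Because the spread narrows as intensity grows, each probe set was also set beside others of like intensity. Between 128 and 256 units, where 6 of the 20 probe sets lie, 95% of all probe sets differed by less than 0.47, and between 1024 and 2048 units, where 3 lie, by less than 0.33. Of the 20 probe sets 0 lay outside the limit of its own range. The largest difference, 0.95 for the Grap2 probe set 1420685_at, lay where the limit was 2.56, below 32 units. The 1.93-fold difference of this probe set is therefore of a size common among probe sets this dim.

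**Figure D2:**
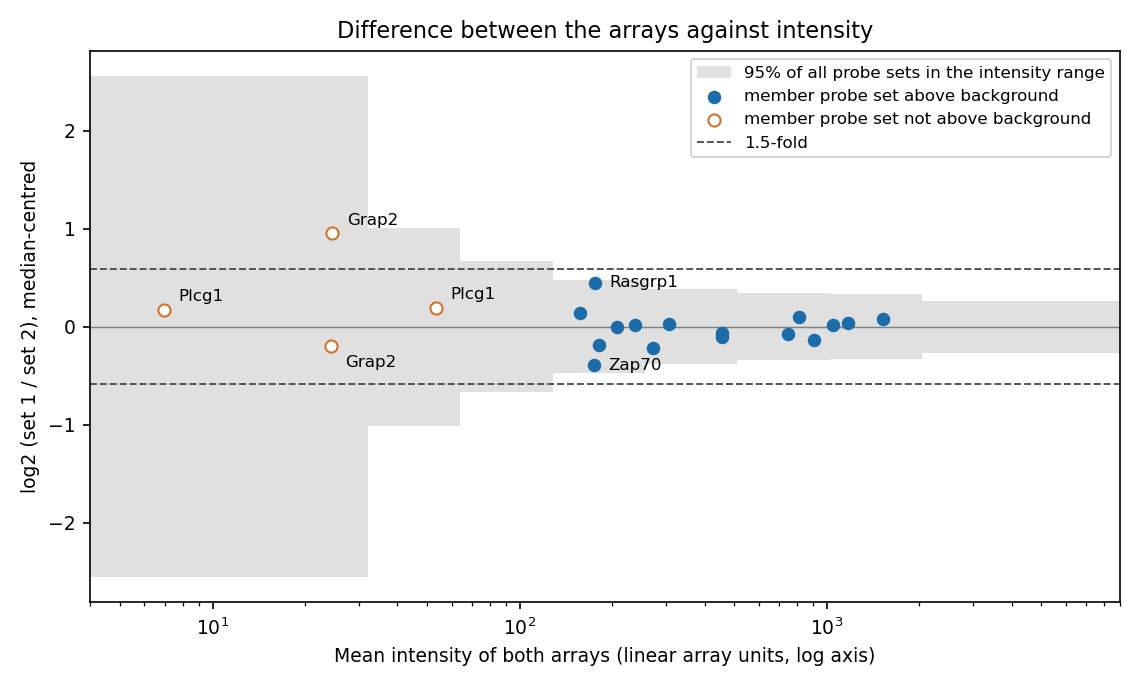
Centred log2 difference of set 1 over set 2 (vertical axis) against the mean intensity of both arrays (horizontal log axis) for the 20 probe sets of the 9 genes, filled where above background. Grey bands hold 95% of all probe sets of each intensity range, dashed lines mark 1.5-fold, and all 20 points lie within the bands.

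Each of these genes belongs to a family, some of whose near relatives do the same work in B cells, myeloid cells or mast cells. Of 23 relatives listed, 19 were measured and 12 (63.2%) were above background, against 47.8% of all named genes. The other 4 were not analysed here. The count of 12 fell to 6 with a bound taken from a second set of off-tissue genes, 95.3 on set 1 and 105.2 on set 2, where 8 of the 9 receptor genes remained above it. The share of all named genes at that bound was 36.2%, which 6 of 19 relatives did not exceed. The second set was not silent here. Of its 53 measured genes 9 passed the first bound, with Mbp at 471.4 on set 1 and 515.6 on set 2 and Tff1 at 456.9 and 442.9. The second bound is therefore a stricter limit rather than another measure of background. Calls of relatives that only the first bound passed are weak.

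In the Src family 1 of 4 measured relatives of Fyn was above background, Blk, a kinase typical of B cells, at 63.6 on set 1 and 87.2 on set 2. Src itself read 17.5 and 11. Fgr, a myeloid kinase, read 55.2 and 44.4, and Yes1, a broadly expressed kinase, 45.9 and 71.5, so that each passed the bound on 1 array alone. Syk, the relative of Zap70 that B cells and myeloid cells use, was above background with 2 of 4 probe sets, the brightest at 106.8 and 113.1 (110 ± 4.45, SD, n = 2). Of the Tec family, Tec was above background at 81.9 and 101.4, while Btk, the B cell member, at 51.4 and 41.7, and Bmx, at 11.5 and 5, were not.

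The relatives of Grap2 were both detected. Grb2, the ubiquitous adaptor that links LAT to the Ras exchange factor SOS, was above background with both probe sets, the brighter at 415.5 on set 1 and 416.3 on set 2. Grap, a haematopoietic adaptor of the same family, read 557 and 527.5 (542 ± 20.9, SD, n = 2) on its only probe set. In each case the readings of the arrays lay far above the bounds, whereas both Grap2 probe sets lay below them. Blnk, which takes the place of SLP-76 in B cells, read 132.6 and 136.7, and Lat2, a LAT-like adaptor of B cells and mast cells, 70.6 and 59.9. Clnk, another relative of SLP-76, was not above background at 35.6 and 31.

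Relatives of the effector genes were above background in 5 of 6 cases, beside 47.8% of all named genes. Of these 5, Vav2, Vav3 and Rasgrp4 did not pass the second bound. Rasgrp2, an exchange factor for Rap1, was so with all 4 probe sets, the brightest at 329.2 on set 1 and 304.2 on set 2 (317 ± 17.7, SD, n = 2). Plcg2, the phospholipase that B cells use, read 153.7 and 175.9 on its only probe set. Vav2 read 117.3 and 97.3 and Vav3 72.8 and 83.3, each with 1 of 3 probe sets above background. Rasgrp4, known from mast cells, read 105.1 and 87.1, and Rasgrp3 was not above background at 16.5 and 43.8.

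**Figure D3:**
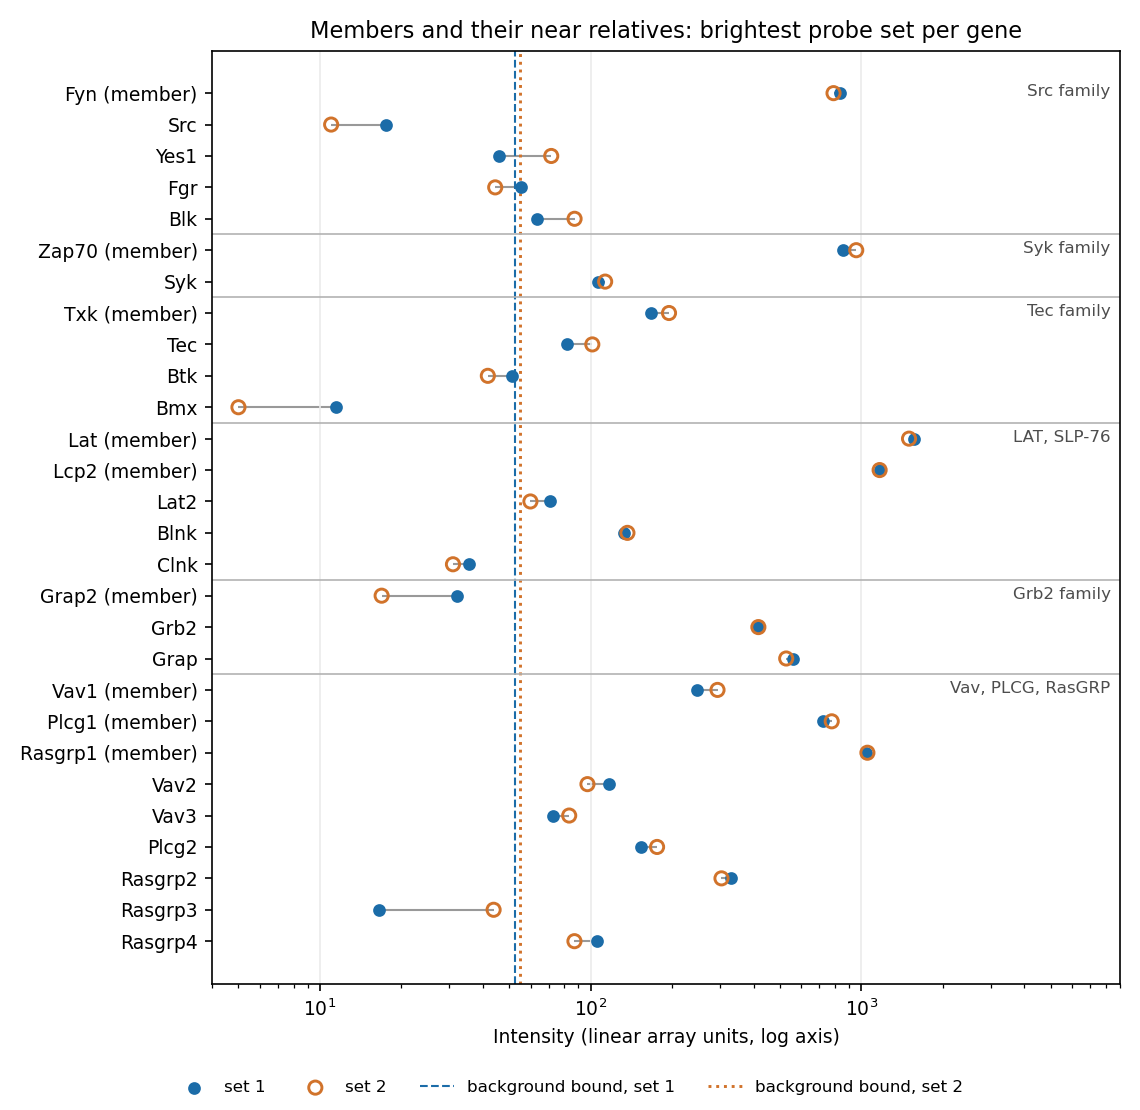
Intensity of the brightest probe set of each of the 9 receptor genes, marked as members, and of their 19 measured relatives, on set 1 (filled) and set 2 (open), in linear array units on a log axis, with the bounds as vertical lines. In the Grb2 family Grap2 lies left of both bounds while Grb2 and Grap lie right of them, and the other 8 of the 9 receptor genes lie right of both.

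Several of the relatives above background are used mainly by B cells. Among B cell markers 5 of 9 measured genes (55.6%) were above background, Cd79a, Cd79b, Cd22, Ms4a1 and Vpreb3, a share near the 47.8% of all named genes. Against the second bound 3 of 9 were, without Cd79a and Vpreb3, beside 36.2% of all named genes. The levels of the 9 sum to 1155.5 on set 1 and 1100.9 on set 2. The B lineage factors Pax5 and Ebf1 were not above background, nor were Fcer2a and Cr2, and no marker of the list was at 0. Ms4a1, which encodes CD20, read 389.7 and 365.1, and Cd22 read 228.1 and 213.9. The receptor chain genes Cd79b and Cd79a read 166.2 and 164.5, and 118.4 and 98.4. The part of B cells in the readings of Blk, Syk, Blnk and Plcg2 was not tested. In a bulk sample fewer cells of a type and less RNA per cell cannot be told apart.

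Of the markers of other cells, those above background were 2 of 12 myeloid genes (Csf1r and Mpeg1), 0 of 7 NK cell genes and 2 of 9 genes of mast cells, platelets and erythroid cells (Itga2b and Epor). Against the second bound 0 genes of these 3 lists were above background, beside 36.2% of all named genes. The myeloid levels sum to 419 on set 1 and 627.4 on set 2, the NK levels to 151.4 and 167, and those of the third list to 341.6 and 406.1, with 0 markers at an intensity of 0. Without Csf1r, of which 1 probe set read 57.3 and 146.7 and another 103.4 and 100.4, the myeloid sums were 361.7 and 480.7. All 8 T cell markers were above background, with Cd3d at 4882.9 and 4459.9 and Thy1 at 3547.2 and 3350.9. The labelled cell type was thus matched by its defining markers.

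The wider pathway was detected almost throughout. Of 86 genes listed 77 were measured, and 74 (96.1%) were above background, against 47.8% of all named genes; the other 9 listed were not analysed here. Many of the measured genes have several probe sets, and the share of all genes above background was 55.7% with 2 and 67.8% with 3. Their 187 probe sets were above background in 145 cases (77.5%), beside 80% for the 9 receptor genes and 38.4% of all probe sets. Of those 145, 2 differed between the arrays by more than 1.5-fold, 1 of Pik3ca and 1 of Ubash3b, against 2.9% of all probe sets above background.

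All 9 genes of receptor chains, coreceptors and other surface receptors were above background, among them Cd3d and Cd3g. Cd3d, Cd3e, Cd3g, Cd247, Cd4, Cd5 and Cd28 are also among the T cell markers above, so the counts overlap. The costimulatory receptor gene Cd28 read 2732.9 on set 1 and 2905.1 on set 2, and Cd2, the gene of an adhesion receptor, 2008.5 and 1856.9. Of 27 partner adaptors 26 were above background, among them Grb2 and Grap, which are also counted as relatives of Grap2. Fyb, the adaptor ADAP that binds SLP-76, read 1945.1 and 1967.1, the actin regulator gene Evl 1881.4 and 1955.5, Wipf1, whose product stabilises the Wiskott-Aldrich protein, 1244.6 and 1461.8, and Themis, a regulator of receptor signalling in thymocytes, 1295.3 and 1212.7. Shb was the exception at 21.9 and 24.9.

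All 19 measured downstream enzymes were above background. Rac2 and Rac1, GTPases on which VAV1 acts, read 3464.8 and 3219.9, and 2390.9 and 2173.9, and Cdc42 read 2572.3 and 2453.5. Prkcq, the diacylglycerol-activated kinase of the synapse, read 1476.3 and 1394.4. Each of these lay above the bounds on both arrays.

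Negative regulators were above background in 18 of 19 cases. Among them were Cblb, a ubiquitin ligase that restrains the pathway, at 1939.4 on set 1 and 2147.2 on set 2, and Dgka and Dgkz, which remove the diacylglycerol that RASGRP1 needs, at 2681.1 and 2474, and 3146.8 and 3231.6. Arhgdib, an inhibitor of small GTPases, read 4840.5 and 4451.5. Csk, whose kinase inactivates Src family members, read 590.7 and 583.1. Spred1, an inhibitor of Ras signalling, read 59.8 and 32.9 with its brightest of 8 probe sets and was not above background.

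Of 3 receptor and cytosolic phosphatases, Ptprc, which encodes CD45, read 5038.4 and 4745.6 and Ptpn11, which encodes SHP-2, 390 and 348.1. Ptprj, which encodes CD148, read 48 and 70.8 and so passed the bound on set 2 alone. The 3 pathway genes not above background were thus Shb, Spred1 and Ptprj.

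**Figure D4:**
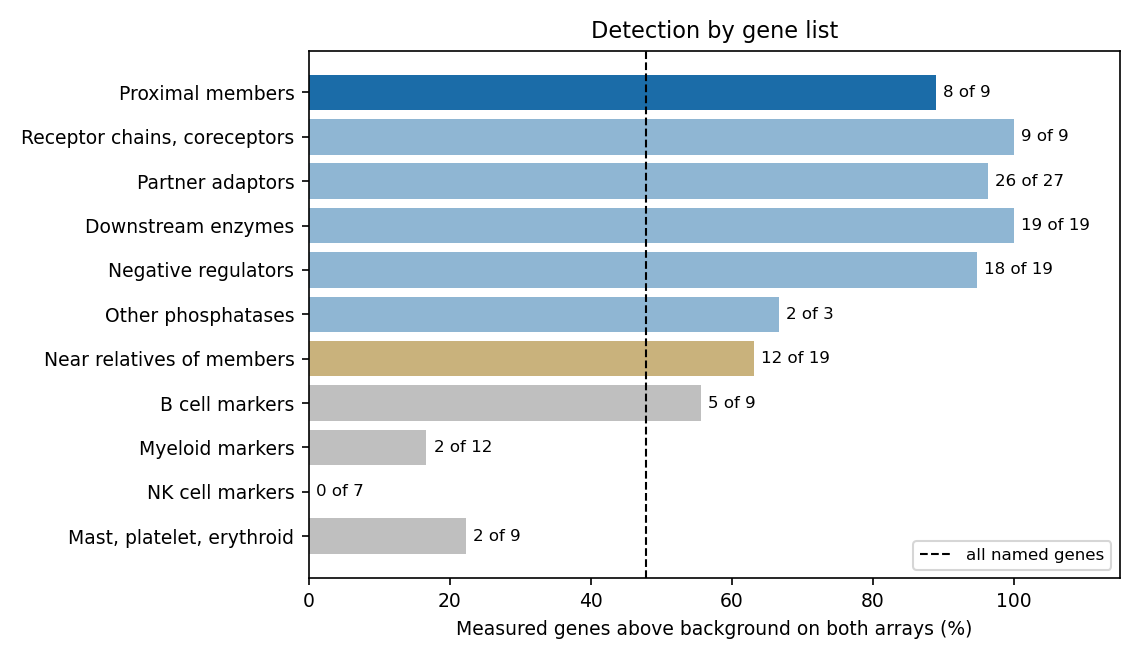
Share of the measured genes of each list that were above background on both arrays, in percent, with the counts beside the bars and the share of all named genes as a dashed line. The receptor genes stand at 8 of 9, the pathway lists between 2 of 3 and all of their genes, and the myeloid and NK cell markers at 2 of 12 and 0 of 7.

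The promoters of the 9 genes were compared as a feature that the choice of genes did not use. RefSeq windows of 250 bases before to 50 after each start (GRCm38.p6) were found for all 9 genes, 12 windows in all, with 3 for Zap70 and 2 for Txk. The windows differed in the ratio of observed to expected CpG dinucleotides, a measure of how far CpG has been kept in a sequence. This ratio was 0.89 for Fyn, 0.88 for Rasgrp1 and 0.70 for Plcg1. In the other 9 windows it ran from 0 for Lcp2 to 0.39 for Vav1. Over all 32851 windows the median was 0.38, and 35.8% exceeded 0.6.

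The windows of Fyn, Lcp2 and Grap2 are shown because they span this range and hold the gene without detected signal; capitals mark CpG dinucleotides. They lie at chr10:39369549-39369848 on the plus strand for Fyn, chr11:34046678-34046977 on the plus strand for Lcp2 and chr15:80623233-80623532 on the plus strand for Grap2, each 300 bases long, 5′ to 3′.
Fyn: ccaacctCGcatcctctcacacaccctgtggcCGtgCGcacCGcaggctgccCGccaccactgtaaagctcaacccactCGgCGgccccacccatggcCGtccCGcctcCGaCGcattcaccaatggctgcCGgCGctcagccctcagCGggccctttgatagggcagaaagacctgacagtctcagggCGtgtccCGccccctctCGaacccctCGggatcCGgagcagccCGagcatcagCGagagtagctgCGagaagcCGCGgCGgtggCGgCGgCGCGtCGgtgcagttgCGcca
Lcp2: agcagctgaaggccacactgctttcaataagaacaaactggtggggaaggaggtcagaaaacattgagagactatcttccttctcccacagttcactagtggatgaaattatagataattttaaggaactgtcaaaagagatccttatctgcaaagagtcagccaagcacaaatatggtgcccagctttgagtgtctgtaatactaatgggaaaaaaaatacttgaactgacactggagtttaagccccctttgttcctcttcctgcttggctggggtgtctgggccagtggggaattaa
Grap2: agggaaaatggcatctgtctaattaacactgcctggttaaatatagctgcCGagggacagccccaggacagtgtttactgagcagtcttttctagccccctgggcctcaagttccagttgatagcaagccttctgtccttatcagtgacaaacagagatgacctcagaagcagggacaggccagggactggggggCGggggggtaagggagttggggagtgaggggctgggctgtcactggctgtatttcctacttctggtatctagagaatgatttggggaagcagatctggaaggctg
The Fyn window holds 31 CpG, the Lcp2 window 0 and the Grap2 window 2. A low ratio was shared by Grap2, at 0.10, and genes whose transcripts were detected, with 0 for Lcp2, 0.31 for Lat and 0.21 to 0.37 for the windows of Zap70.

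Short motifs were searched on both strands of the 12 windows. The ETS motif GGAAGT was in 4 windows (Zap70, both of Txk, and Vav1) and in 23.8% of all 32851 windows. The RUNX motif TGTGGT was in 3 (Zap70, Txk and Lat) and in 16.8% of all, and the E-box CAGGTG in 5 (2 of Zap70, Rasgrp1, Plcg1 and Vav1) and in 20.2% of all. The GC-box GGGCGG was in 5 (Rasgrp1, Plcg1, Fyn, Grap2 and Vav1) and in 35.7% of all. The letters TATAAA were in 0 of the 12 and in 13.6% of all, and the cyclic AMP response element TGACGTCA was in 1 (Zap70) and in 1.79% of all. No motif contains another, and these matches are a description of the letters, with no test.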

How the data were processed

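Gene expression was measured in 1 group of 2 samples of 5cc7 T cell blasts on Affymetrix mouse 430 2.0 arrays, from polyadenylated RNA labelled with biotin. The authors deposited 1 intensity value per probe set and array. These run from 0 to 8860.2, from which a linear scale was read; the sources used here do not give the authors' background correction, probe summary or scaling. Of 45101 probe sets 64 controls were left out. GEO's platform annotation gave 34945 probe sets 1 symbol, 932 several and 9160 none listed. All 9 symbols matched the RefSeq table of GRCm38.p6 by Entrez identifier.

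The bound came from 58 probe sets of 42 off-tissue genes. Intensities under 1 were set to 1 before log2. The brightest probe set gave a gene's level. With 1 group no contrast was tested, and no p-value is given. Named were every receptor gene and measured relative, and from each further list the 4 brightest genes above background and every pathway gene not above it; Csk was added after its value was seen, and the other cell type markers not above background are given as counts. Alternatives covered the bound, each array alone, scaling, centring, floor, filter, probe set type and the level of a gene. Promoter motifs were chosen after the windows were seen. The genes and lists were chosen with earlier results of these data known. Python 3.11.15, numpy 2.4.6, pandas 2.3.3 and matplotlib 3.10.9 were used.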

Additional observations from a re-analysis of the deposited data

How the results depend on the processing

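Under 42 of 44 recomputations the results stayed within the limits set for a change, but some of these could not move. Scaling to the trimmed mean multiplies values and bounds alike. A floor of 16 lies below every reading of the 16 probe sets above background, and a 2-fold limit cannot raise a count of 0. The limits were also wide, as relatives falling from 12 to 9 and pathway genes from 74 to 67 stayed within them. The 2 results past the limits were the relatives above background, 6 in place of 12 with the bound from the second off-tissue list, and the probe sets of the 9 genes that differed by more than 1.5-fold, 1 of 20 (Grap2) in place of 0 of 16 without the filter on dim probe sets. With the second list's bound the share of all named genes above background also fell, from 47.8% to 36.2%. With the bound at the 90th or 99th percentile, from the second list or at the overall median, or with either array alone, 8 of the 9 genes were above background and Grap2 was not. With the median over the probe sets of a gene as its level the count was 7, because Plcg1 also fell below. The probe sets above background numbered 16 or 17 of 20, and 15 of 19 where those with names ending in _x_at or _s_at were left out. Pathway genes numbered 67 to 75 of 77. Either array alone gave 75 pathway genes and 13 relatives. No paired analysis was possible because the arrays form 1 group. Signal near the bound limits the calls of Blk, Tec, Lat2, Vav2, Vav3 and Rasgrp4. It also limits those of the markers Cd79a, Vpreb3, Csf1r, Mpeg1, Itga2b and Epor, lost with the second list's bound, a check chosen after seeing the data.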
